A study of Mus musculus with 16 samples.

Results

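The genes described here are 43 that encode chromatin-modifying enzymes or core subunits of their complexes, out of 24421 genes in the count table. They were found by matching gene symbols to a list of names, and all 43 were present and passed the filter on low counts, which left 13554 genes. They fall into 9 classes: 3 DNA methyltransferases, 3 TET dioxygenases, 4 subunits of Polycomb repressive complex 2, 6 methyltransferases of histone H3 lysine 4, 6 other histone methyltransferases, 7 histone demethylases, 6 histone deacetylases, 5 histone acetyltransferases and 3 SWI/SNF remodelling subunits. RNA came from naive T cells of the lymph nodes of C57BL/6 mice, with no genetic change or treatment named. The sources used here name neither the age or sex of the mice nor any pooling of cells from several mice. The cells had been sorted as CD8+ or CD4+, all without CD25, with high CD62L and low CD44, and by surface CD5, a receptor that dampens T cell receptor signalling. The 4 groups were CD8 CD5hi and CD8 CD5lo, then CD4 CD5hi and CD4 CD5lo, where CD5hi is the third of the cells with the most CD5 and CD5lo the third with the least. Each group had 4 replicate libraries, 16 in all; they are called biological replicates, but nothing ties them to separate mice, so p-values measure the spread between these libraries.

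Chromatin enzymes write, erase or act on chemical marks of DNA and histones. DNA methyltransferases add methyl groups to cytosine, and TET enzymes oxidise them. Methylation of histone H3 on lysine 4 is found at promoters and enhancers of active genes, while Polycomb repressive complex 2 methylates lysine 27 at silent ones. Acetyltransferases loosen histone contacts and deacetylases reverse this. In T cells these enzymes take part in lineage choice in the thymus and in the differentiation that follows activation, and naive cells are the resting stage in between. The series title names CD5 as a regulator of resting NF-kB activity, and the comparisons here ask how the RNA of these enzymes differed with CD5 level and between the lineages.

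Libraries held 71447252 to 93418385 counts. Cd5 itself followed the sort, higher in CD5hi by 1.31 on the log2 scale in CD8 cells and by 2.44 in CD4 cells. T cell markers were abundant in every library, at a summed 3531 to 5127 CPM for 6 genes, where CPM are counts scaled to library size and normalised between libraries. In 3 libraries B cell markers stood apart. Their sum over 12 genes was 851 CPM in CD8 CD5hi replicate 4, 531 CPM in CD8 CD5lo replicate 3 and 340 CPM in CD4 CD5lo replicate 3, against at most 64.9 CPM in the other 13. Markers of the opposite lineage were low: the 2 CD4 lineage markers summed to 82.6 CPM in CD8 CD5hi replicate 4, 34.0 CPM in CD8 CD5lo replicate 3 and no more than 3.58 CPM in any remaining CD8 library, and the 2 CD8 lineage markers to 8.41 to 10.5 CPM in CD4 CD5hi and 27.5 to 41.7 CPM in CD4 CD5lo. Myeloid markers (10 genes) summed to 45.8 to 81.1 CPM and natural killer markers (6 genes) to at most 9.16 CPM. The replicate 1 libraries also stood apart for the members, as described near the end. Values without one or the other set are given for some of the results.

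The members were abundant genes. Averaged over 16 libraries, 42 of 43 were above the median of all tested genes, and the median member was at percentile 89.8. The range ran from 18.25 CPM for Dnmt3b to 1105 CPM for Kmt2d. To compare levels between genes, CPM were divided by the exonic length in kilobases. On that scale Hdac7 was highest at 107.6 CPM per kilobase (16 libraries, 62.6 to 148.2). Next came the SWI/SNF subunit Arid1a at 94.5, the deacetylase Hdac1 at 76.0, the lysine 9 methyltransferase Ehmt2 at 57.0 and the lysine 4 methyltransferase Kmt2d at 55.7. The lowest were Tet1 at 2.65, Dnmt3b at 4.22 and Hdac4 at 5.45 CPM per kilobase. No member's highest group mean was more than 2.11 times its lowest, the ratio of Hdac7, so levels differed far more between deacetylases than any member did between sorted groups.

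**Figure D1:**
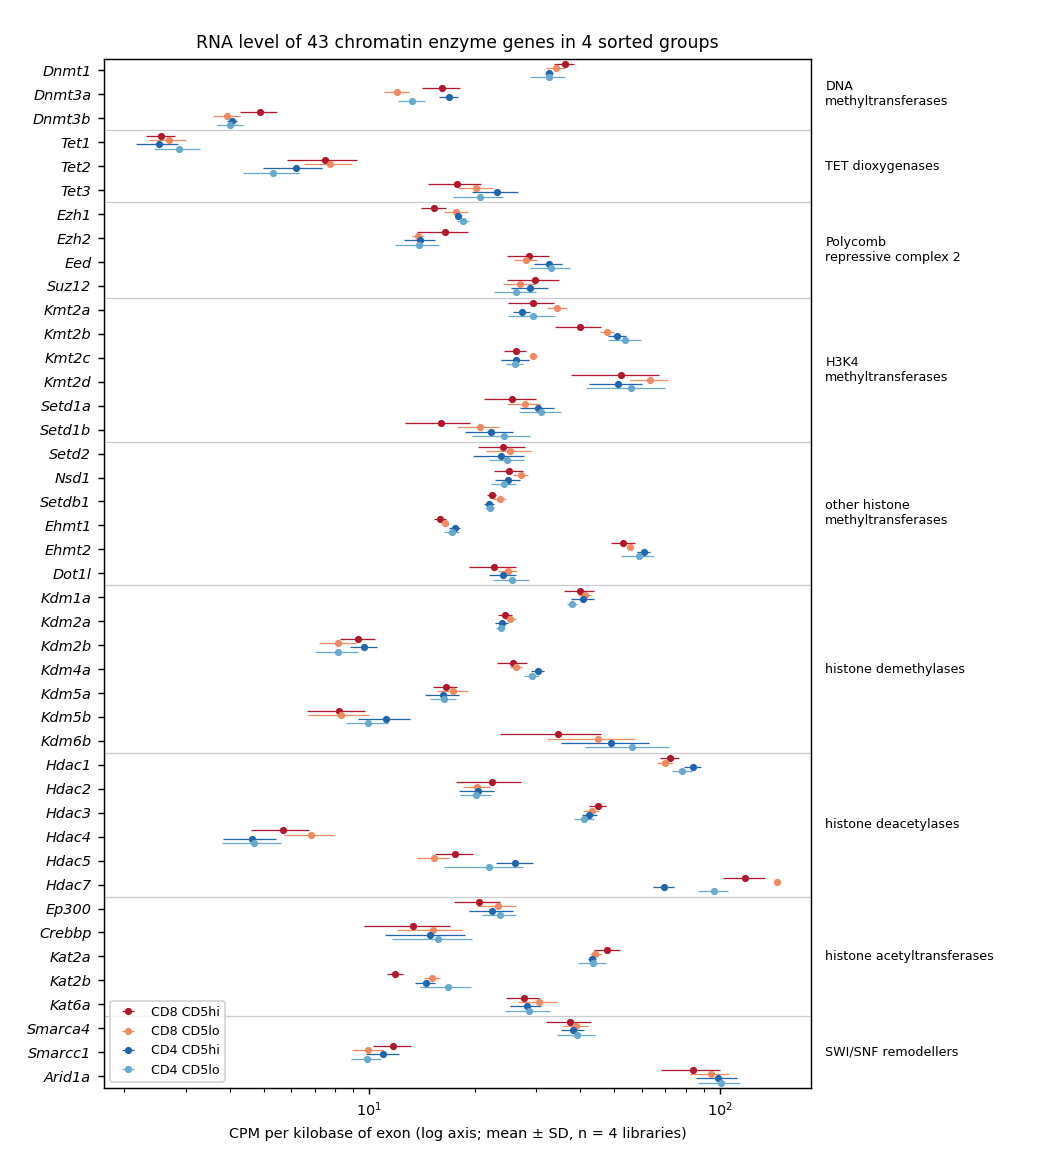
RNA level of each member in CPM per kilobase of exon (horizontal log axis), as the mean (point) and SD (line) of 4 libraries in each group, arranged by class. Within a gene the 4 groups lie close together, and the widest spread between group means is that of Hdac7, where CD8 CD5lo is highest and CD4 CD5hi lowest.

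Few members differed with CD5 level. In CD8 cells, 3 of 43 members passed the test (6.98%), with Dnmt3a and Dnmt3b higher and Kat2b lower in CD5hi. Of all genes tested in that comparison 9.46% passed, 5.95% higher and 3.51% lower. In CD4 cells, 2 of 43 passed (4.65%), with Dnmt3a higher and Hdac7 lower in CD5hi. Of all genes 4.08% passed there, 2.68% higher and 1.4% lower. Both shares lie near those of all genes. The test throughout is edgeR's quasi-likelihood F test with p adjusted over all 13554 genes and a threshold of 0.05. The median log2 change of the members was -0.07 in CD8 cells and -0.00 in CD4 cells, against -0.00 and -0.01 for all genes. The CD8 median was -0.01 without CD8 CD5hi replicate 1, -0.03 without CD8 CD5lo replicate 2 and -0.10 without CD8 CD5lo replicate 1. No member passed the test of the difference between the CD8 and the CD4 effect (edgeR, 0 of 43, against 0.31% of all genes). DESeq2 and limma voom called 0 there as well, and 1 member, Dnmt3b, had an unadjusted p under 0.05.

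Most members that missed the threshold were bounded within 1.5-fold. The largest called CD5 change, that of Hdac7 in CD4 cells, was -0.47 on the log2 scale and itself lies within 1.5-fold. An interval within that bound can therefore still hold a change as large as those called. In CD8 cells the 95% interval of the fold change lay within 1.5-fold either way for 35 of the 40 members not called, and in CD4 cells for 38 of 41. The widest interval in both was that of Kdm6b, a lysine 27 demethylase, whose lower bound was -0.97 on the log2 scale in CD8 cells and -0.79 in CD4 cells. For the difference between the effects, 34 of 43 intervals lay within 1.5-fold. A p above the threshold does not show that levels were the same.

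**Figure D2:**
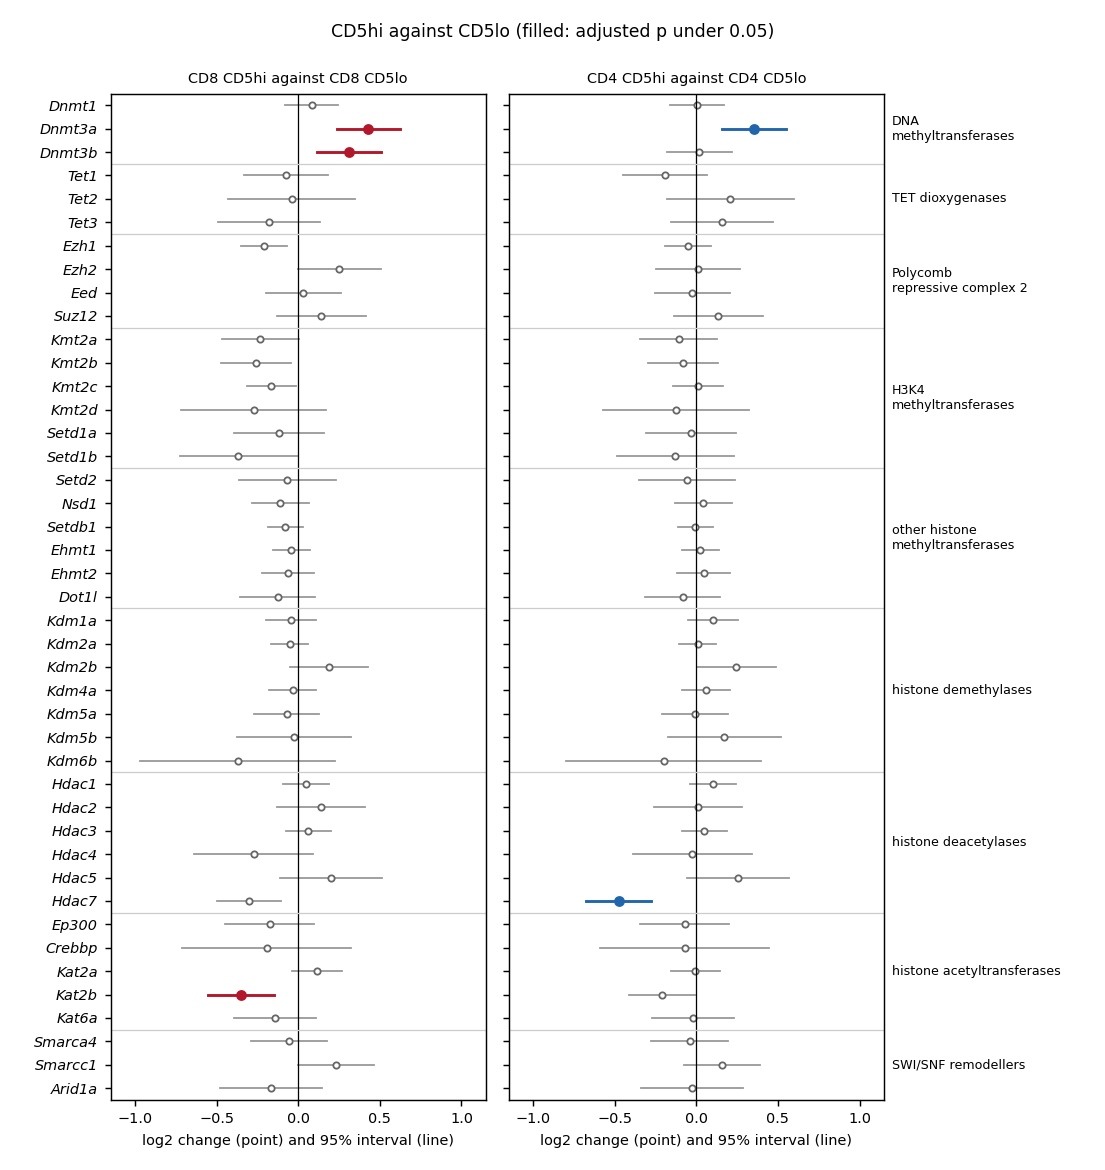
Log2 change of each member in CD5hi against CD5lo (horizontal axis; point, estimate; line, 95% interval; filled, adjusted p under 0.05), with CD8 cells on the left and CD4 cells on the right. Filled points are Dnmt3a, Dnmt3b and Kat2b in CD8 cells, and Dnmt3a and Hdac7 in CD4 cells; most other points lie within 0.3 of 0.

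Promoters of the 4 members called in a CD5 comparison are printed here because these are the genes on which the CD5 results turn. Each line gives 250 bases before to 50 bases after the first transcription start listed by RefSeq (GRCm38.p6), 5′ to 3′ on the gene's own strand, with every CG dinucleotide in capitals. The windows are chr12:3806730-3807029 on the plus strand for Dnmt3a, chr2:153649199-153649498 on the plus strand for Dnmt3b, chr15:97831446-97831745 on the minus strand for Hdac7 and chr17:53566721-53567020 on the plus strand for Kat2b. RefSeq lists 3 starts for Dnmt3a, 4 for Hdac7 and 2 for Kat2b, so another start may be the one used in T cells.
Dnmt3a: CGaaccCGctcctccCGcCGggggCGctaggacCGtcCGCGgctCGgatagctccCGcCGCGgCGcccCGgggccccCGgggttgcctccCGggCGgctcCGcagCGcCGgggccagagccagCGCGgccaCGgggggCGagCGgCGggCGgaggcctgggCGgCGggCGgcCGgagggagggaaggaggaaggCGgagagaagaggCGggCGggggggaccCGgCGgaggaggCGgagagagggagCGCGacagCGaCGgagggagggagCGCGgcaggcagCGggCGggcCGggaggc
Dnmt3b: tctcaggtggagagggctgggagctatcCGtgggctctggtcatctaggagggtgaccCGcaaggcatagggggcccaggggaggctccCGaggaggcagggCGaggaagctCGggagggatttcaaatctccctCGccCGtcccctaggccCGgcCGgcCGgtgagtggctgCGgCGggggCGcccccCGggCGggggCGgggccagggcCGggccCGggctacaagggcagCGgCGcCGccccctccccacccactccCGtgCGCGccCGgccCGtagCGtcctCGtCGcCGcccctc
Hdac7: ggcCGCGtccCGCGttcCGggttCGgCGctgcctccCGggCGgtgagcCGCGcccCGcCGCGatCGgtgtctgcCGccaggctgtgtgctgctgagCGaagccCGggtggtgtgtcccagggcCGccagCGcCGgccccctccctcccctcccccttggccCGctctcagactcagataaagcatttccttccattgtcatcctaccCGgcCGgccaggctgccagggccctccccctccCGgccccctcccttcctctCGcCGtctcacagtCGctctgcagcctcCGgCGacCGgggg
Kat2b: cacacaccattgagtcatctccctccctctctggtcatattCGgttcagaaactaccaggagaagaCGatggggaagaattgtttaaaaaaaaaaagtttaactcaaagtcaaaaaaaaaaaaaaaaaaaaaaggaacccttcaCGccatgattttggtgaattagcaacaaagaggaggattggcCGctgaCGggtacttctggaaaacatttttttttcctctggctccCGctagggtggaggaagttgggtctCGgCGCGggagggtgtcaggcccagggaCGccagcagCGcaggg
The windows hold 46 CG dinucleotides in Dnmt3a, 30 in Dnmt3b, 31 in Hdac7 and 11 in Kat2b. The median was 30 over the 34 members with a promoter in the table and 7 over all 32851 promoters. An NF-kB motif was searched on both strands, since the study concerns that pathway. It matched in 3 of the 34 members (8.82%): Dnmt3b, Kdm2b and Kdm5b, against 8.18% of the first promoters of all genes. The E2F motif TTTNNCGC, searched likewise, matched in 4 of 34 (11.76%): Ezh2, Suz12, Kat2a and Ep300, against 5.27%. These shares use the first listed start of each gene. Over all 47 listed promoters of members, 6 matched E2F (12.77%, against 5.17% of all promoters), with Dnmt1 and Arid1a matching at a later start. The E2F motif holds a CG, and members held more CGs than all promoters. The part of this in the shares was not tested. Motif matches are letters in a window and say nothing about binding.

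Of the DNA methyltransferases, Dnmt3a was higher in CD5hi in both lineages and Dnmt3b in CD8 cells. Dnmt3a, a de novo methyltransferase that sets new methylation in T cells, lies on chromosome 12 (GRCm38, 3806007 to 3914443, plus strand). It was at 139.5, 183.3, 169.6 and 148.3 CPM in CD8 CD5hi libraries 1 to 4, against 108.2, 126.2, 128.0 and 113.7 CPM in CD8 CD5lo. In CD4 cells it was at 155.2, 172.2, 179.2 and 163.6 CPM in CD5hi, against 123.9, 119.7, 145.6 and 135.3 CPM in CD5lo. Every CD5hi library lay above every CD5lo library of its lineage. The log2 change was 0.43 ± 0.09 in CD8 cells (± SE, edgeR adjusted p = 0.0068) and 0.35 ± 0.09 in CD4 cells (adjusted p = 0.0371), that is 1.35-fold and 1.28-fold. The difference between these effects was 0.07 ± 0.13. The call in CD8 cells was kept without any one of the 16 libraries (adjusted p at most 0.0358). In CD4 cells it was lost without any one of 8 libraries, with an adjusted p up to 0.139 without CD4 CD5lo replicate 2, and it was 0.0812 without the 4 replicate 1 libraries. These 8 were all 4 of CD4 CD5hi, CD4 CD5lo replicates 1, 2 and 4 and CD8 CD5lo replicate 2, and the log2 change stayed between 0.31 and 0.41 over all 16. With the replicate number as a block the CD4 value was 0.35 ± 0.06 (adjusted p = 0.00185).

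Dnmt3b, the other de novo enzyme and the least abundant member, lies on chromosome 2 (153649450 to 153687730, plus strand). It was at 19.1, 23.2, 23.2 and 18.7 CPM in CD8 CD5hi, against 15.4, 17.9, 18.5 and 16.1 CPM in CD8 CD5lo. In CD4 cells it was at 17.7, 18.4, 17.1 and 17.3 CPM in CD5hi, against 18.01, 15.7, 19.1 and 16.6 CPM in CD5lo, and those groups overlapped. In CD8 cells the CD5hi libraries all lay above the CD5lo libraries, by a narrow gap. The log2 change there was 0.31 ± 0.09 (edgeR adjusted p = 0.0476), close to the threshold, and the call was lost without any one of 9 libraries (adjusted p up to 0.166, without CD8 CD5hi replicate 2). The other 8 were CD8 CD5hi replicate 3, CD8 CD5lo replicates 1, 2 and 4, CD4 CD5hi replicates 1, 3 and 4 and CD4 CD5lo replicate 4. It was also lost without the 4 replicate 1 libraries (0.32, adjusted p = 0.118), with only the CD8 groups in the fit (adjusted p = 0.130), with no filter on low counts (0.0661) and with either of 2 other size factors (0.0519 and 0.0531). Without the 3 libraries high in B cell markers it was 0.42 (adjusted p = 0.0155). The CD4 change was 0.02 ± 0.09, and the difference between the effects, 0.29 ± 0.13, did not pass (adjusted p = 0.614). Dnmt3b was also higher in CD8 CD5hi than in CD4 CD5hi, by 0.26 ± 0.09 (adjusted p = 0.0473). This did not pass without one of CD8 CD5hi replicates 2 and 3, CD4 CD5hi replicates 1, 3 and 4 and CD4 CD5lo replicate 4 (adjusted p up to 0.145).

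Genes of the cell cycle moved with the CD8 CD5hi group. Of 29 on the list, 24 were higher in CD8 CD5hi than in CD8 CD5lo and 0 lower, against 5.95% and 3.51% of all genes. Their summed level was 1468, 1517, 1270 and 848 CPM in CD8 CD5hi replicates 1 to 4, against 652 to 769 CPM in CD8 CD5lo. The library with the lowest sum, replicate 4, also had the lowest Dnmt3b of that group at 18.7 CPM, although replicate 1, with one of the highest sums, was nearly as low at 19.1 CPM. In CD4 cells 0 of 29 were called, but 27 of 29 had a positive estimate. Their median log2 change there was 0.37, against -0.01 for all genes. The difference between the CD8 and CD4 effects passed for 1 of 29. Of 7 regulatory T cell markers, 3 were higher in CD8 CD5hi (summed 180 to 195 CPM, against 101 to 144 CPM in CD8 CD5lo). In CD4 cells 5 of the 7 were higher in CD5hi (summed 350 to 431 CPM, against 118 to 148 CPM in CD5lo). The part of either list in the results for Dnmt3a, Dnmt3b and the other members was not tested. In such bulk samples, more cells that hold an RNA and more of that RNA per cell cannot be told apart.

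The third enzyme of the class, Dnmt1, copies methylation after DNA replication and was the most abundant per length at 33.9 CPM per kilobase. Its mean level was 228 ± 14.6 CPM in CD8 CD5hi, 215 ± 13.5 in CD8 CD5lo, 206 ± 5.30 in CD4 CD5hi and 205 in CD4 CD5lo (SD, n = 4), and it was called in no comparison. TET dioxygenases were likewise called in no comparison. Per kilobase Tet3 was at 20.5 CPM, Tet2 at 6.68 and Tet1 at 2.65, and their ranges over the 16 libraries did not overlap. Tet2, an enzyme often lost in clonal blood growth, averaged 69.1 CPM in CD8 CD5hi and 70.9 in CD8 CD5lo, against 56.7 in CD4 CD5hi and 49.1 in CD4 CD5lo. Its difference between CD8 CD5lo and CD4 CD5lo was 0.53 ± 0.18 (adjusted p = 0.0537). It passed with the replicate block (0.53 ± 0.09, adjusted p = 0.000386), by DESeq2 (adjusted p = 0.0272) and without any one of CD8 CD5hi, CD8 CD5lo and CD4 CD5hi replicate 1 and CD4 CD5lo replicate 3 (adjusted p 0.0222 to 0.0448). With the block Tet2 was also higher in CD8 CD5hi than in CD4 CD5hi (0.27, adjusted p = 0.0231) and Tet3 lower (-0.38, adjusted p = 0.000196). With all libraries and no block neither passed, while Tet3 passed without the 4 replicate 1 libraries (-0.35, adjusted p = 0.00607) and without CD4 CD5hi replicate 1 alone (-0.47, adjusted p = 0.0244). Replicate 1 was the lowest Tet3 library of both groups. The last fit leaves out that of CD4 CD5hi (213 CPM) and keeps that of CD8 CD5hi (156 CPM).

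**Figure D3:**
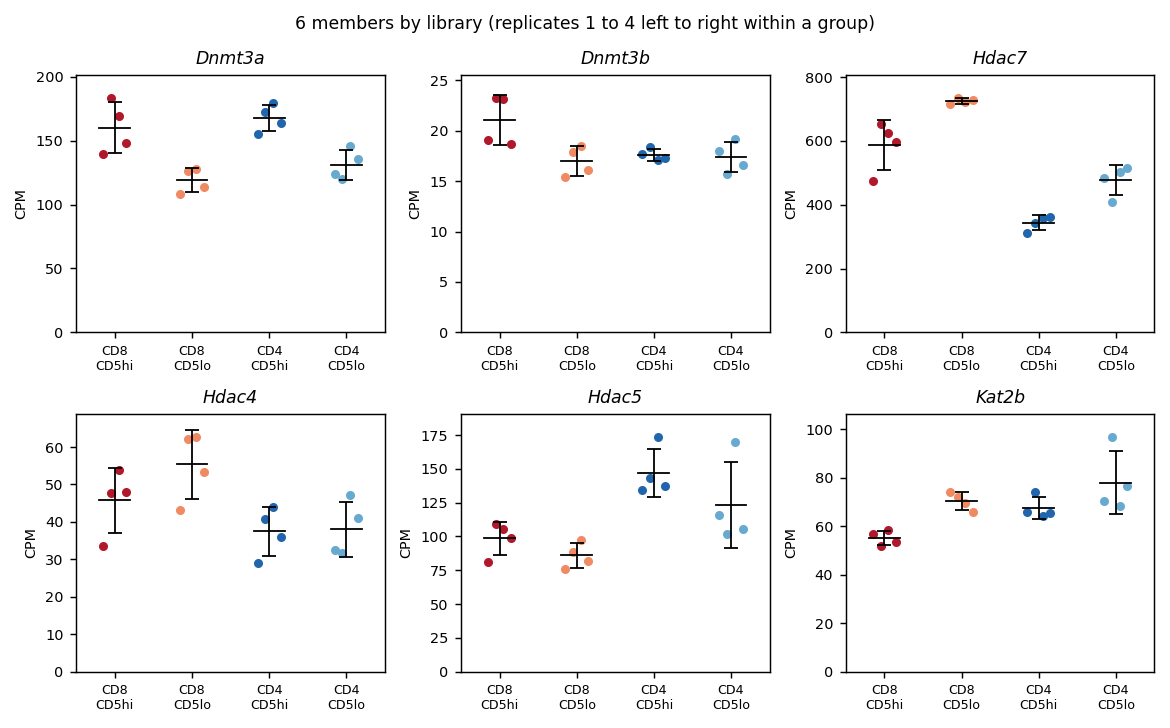
CPM of 6 members in each library (vertical axis from 0), with CD8 CD5hi, CD8 CD5lo, CD4 CD5hi and CD4 CD5lo from left to right; dots are libraries, replicates 1 to 4 from left to right, and bars are the mean and SD. Dnmt3a is higher in CD5hi than in CD5lo in both lineages, while Hdac7 is lower in CD5hi in both and higher in CD8 than in CD4.

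Histone deacetylases showed the widest differences of all members. Hdac7 encodes a class IIa enzyme that is abundant in the T cell lineage and leaves the nucleus when T cell receptor signals lead to its phosphorylation. It lies on chromosome 15 (97792664 to 97844502, minus strand), and 0.585% of its exonic bases are shared with Slc48a1 on the other strand. It was at 474, 654, 626 and 597 CPM in CD8 CD5hi, against 715, 735, 722 and 728 CPM in CD8 CD5lo. In CD4 cells it was at 310.5, 344, 359 and 362 CPM in CD5hi, against 483, 409, 504 and 514 CPM in CD5lo. The groups overlapped in neither lineage, and the order from high to low was CD8 CD5lo, CD8 CD5hi, CD4 CD5lo and CD4 CD5hi, although CD8 CD5hi replicate 1 lay among the CD4 CD5lo libraries.

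In CD4 cells Hdac7 was lower in CD5hi, with a log2 change of -0.47 ± 0.09, or 0.720-fold (edgeR adjusted p = 0.00602). The call was kept without any one of the 16 libraries, and without the 3 libraries high in B cell markers (-0.45, adjusted p = 0.0352). Both CD8 lineage markers were lower in CD4 CD5hi too, with summed levels of 8.41 to 10.5 CPM in CD4 CD5hi and 27.5 to 41.7 CPM in CD4 CD5lo, beside 2480 CPM or more in each CD8 library; their part in the Hdac7 result was not tested. In CD8 cells the change was -0.30 ± 0.09 with an adjusted p of 0.0527, just past the threshold. DESeq2 (adjusted p = 0.0310) and limma voom (0.0438) called it there, as did edgeR without CD8 CD5hi replicate 2 (0.0465) or CD4 CD5lo replicate 2 (0.0409). Without the 4 replicate 1 libraries the CD8 value was -0.21 (adjusted p = 0.157). Without the 3 libraries high in B cell markers it was -0.30 (adjusted p = 0.131). The difference between the CD8 and CD4 effects was 0.17 on the log2 scale and did not pass. Hdac7 was higher in CD8 than in CD4 cells at both CD5 levels, by 0.77 ± 0.09 in CD5hi (1.71-fold, adjusted p = 9.80e-06) and by 0.60 ± 0.09 in CD5lo (1.52-fold, adjusted p = 0.000166). Both calls were kept without any one library.

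Of the other class IIa enzymes, Hdac5 went the other way between lineages. It lies on chromosome 11 (102194432 to 102230166, minus strand). It was at 81.4, 109, 106 and 98.9 CPM in CD8 CD5hi, against 134, 143, 173 and 137 CPM in CD4 CD5hi. In the CD5lo groups it was at 75.9, 88.6, 97.2 and 82.1 CPM in CD8 cells, against 116, 102, 170 and 106 CPM in CD4 cells. No CD8 library reached the CD4 libraries of the same CD5 level. The log2 change of CD8 against CD4 was -0.57 ± 0.15 in CD5hi (edgeR adjusted p = 0.00719, kept without any one library) and -0.52 ± 0.15 in CD5lo (adjusted p = 0.0191). The CD5lo value was -0.32 (adjusted p = 0.0666) without CD4 CD5lo replicate 3, one of the libraries high in B cell markers. The call was also lost without CD8 CD5lo replicate 1 or 4, and without the 4 replicate 1 libraries (-0.50, adjusted p = 0.0663). It was kept without the 3 libraries high in B cell markers (-0.39, adjusted p = 0.0464).

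CD4 CD5lo replicate 3 also bears on Hdac5 and CD5. With all libraries Hdac5 was not called in CD4 CD5hi against CD4 CD5lo (0.26 ± 0.15, adjusted p = 0.563). Without that library alone it was higher in CD5hi (0.45, adjusted p = 0.0429), as it was without the 3 libraries high in B cell markers (0.45, adjusted p = 0.0433). Replicate 3 was the highest library of CD4 CD5hi too, at 173 CPM, and it stayed in both of those fits. With the replicate block and all libraries Hdac5 did not pass in this comparison (0.27 ± 0.09, adjusted p = 0.0960). Hdac4, the remaining class IIa member and the least abundant deacetylase, averaged 45.8 ± 8.67 CPM in CD8 CD5hi and 55.4 ± 9.12 in CD8 CD5lo, against 37.5 ± 6.49 in CD4 CD5hi and 38.1 ± 7.34 in CD4 CD5lo (SD, n = 4). It was higher in CD8 CD5lo than in CD4 CD5lo by 0.54 ± 0.17 (edgeR adjusted p = 0.0369), although the libraries of the groups overlapped. That call was lost without any one of 6 libraries (CD8 CD5lo replicates 2, 3 and 4 and CD4 CD5lo replicates 1, 2 and 4). It was also lost without the 3 libraries high in B cell markers, where the log2 change was 0.60 ± 0.19 (adjusted p = 0.0528). In CD5hi the lineage difference of Hdac4 was 0.29 ± 0.17, called only with the block (adjusted p = 0.0125).

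The class I deacetylases, which act in nuclear corepressor complexes, differed less. Hdac1 averaged 147 ± 9.17 CPM in CD8 CD5hi, against 171 ± 9.38 CPM in CD4 CD5hi, a log2 change of -0.22 ± 0.07 (edgeR adjusted p = 0.0197). That call was lost without any one of 5 libraries, CD8 CD5hi replicates 2 and 3 and CD4 CD5hi replicates 1, 2 and 4. Without the 3 libraries high in B cell markers its log2 change was -0.21 (adjusted p = 0.0521). In CD5lo the change was -0.16 and passed with the block (adjusted p = 0.00289) and by DESeq2 (0.0459). Hdac2 had group means of 85.5 to 94.8 CPM and Hdac3 of 83.5 to 91.4 CPM, and neither was called in any comparison.

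Among histone acetyltransferases, Kat2b was the member called. It encodes PCAF, a coactivator that acetylates histones and other proteins, and lies on chromosome 17 (53566861 to 53672720, plus strand). It was at 56.7, 51.9, 58.2 and 53.6 CPM in CD8 CD5hi, against 74.0, 71.9, 69.7 and 65.7 CPM in CD8 CD5lo. In CD4 cells it was at 65.9, 73.9, 64.3 and 65.6 CPM in CD5hi, against 70.2, 96.6, 68.2 and 76.5 CPM in CD5lo. The CD8 groups did not overlap, while the CD4 groups did, with CD4 CD5lo replicate 2 above the rest.

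In CD8 cells Kat2b was lower in CD5hi, with a log2 change of -0.35 ± 0.10 (0.783-fold, edgeR adjusted p = 0.0283). The CD4 change, -0.21 ± 0.10, did not pass (adjusted p = 0.378), and the difference between the effects was -0.14. The CD8 call was lost without any one of CD8 CD5hi replicates 1 and 2 and CD8 CD5lo replicates 1, 2 and 3 (adjusted p up to 0.0970). It was also lost without the 3 libraries high in B cell markers (-0.33, adjusted p = 0.0774) and without the 4 replicate 1 libraries (-0.33, adjusted p = 0.125). Kat2b was lower in CD8 CD5hi than in CD4 CD5hi as well (-0.29 ± 0.10, adjusted p = 0.0288). That was lost without CD8 CD5hi replicate 2 or 4 or CD4 CD5hi replicate 2 (adjusted p up to 0.111). It was also lost without the 3 libraries (-0.26, adjusted p = 0.0762) and without replicate 1 (adjusted p = 0.0618). Its paralog Kat2a had group means of 131.7 to 146 CPM. Ep300 and Crebbp, the paired coactivators p300 and CBP, had means of 197 to 226 and 144 to 170 CPM, and Kat6a had 252 to 278 CPM. None of these 4 was called in any comparison with all libraries, but Kat2a was higher in CD8 CD5hi than in CD4 CD5hi without CD8 CD5hi replicate 1 (0.21, adjusted p = 0.0283).

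Subunits of Polycomb repressive complex 2 did not pass in either CD5 comparison by edgeR with all libraries and no block. The catalytic subunits Ezh1 and Ezh2 were at like levels per length, 17.4 and 14.5 CPM per kilobase, and the core subunits Eed and Suz12 were at 30.5 and 28.0. Ezh1, the form typical of resting cells, was at 86.8, 90.6, 91.3 and 104 CPM in CD8 CD5hi, against 106, 108, 110 and 111 CPM in CD4 CD5hi. The groups did not overlap, and the log2 change was -0.23 ± 0.07 (edgeR adjusted p = 0.0172). It was lost without CD8 CD5hi replicate 1, 2 or 3 or CD4 CD5hi replicate 3, and without the 4 replicate 1 libraries (adjusted p = 0.0695). Against CD8 CD5lo, Ezh1 in CD8 CD5hi was at -0.21 ± 0.07 (adjusted p = 0.0646), without the 3 libraries high in B cell markers at -0.28 (adjusted p = 0.0269) and without CD8 CD5hi replicate 4 alone at -0.27 (adjusted p = 0.0141). DESeq2 called it with all libraries (adjusted p = 0.0348). Ezh2, the form typical of dividing cells, averaged 46.0 CPM in CD8 CD5hi and 38.7 to 39.1 CPM in the other groups. Its difference between CD8 CD5hi and CD4 CD5hi was 0.23 ± 0.13 (adjusted p = 0.158), which passed with the block (adjusted p = 0.0254) and without the 3 libraries (0.36, adjusted p = 0.0205). Without CD8 CD5hi replicate 4 alone Ezh2 was higher in CD8 CD5hi than in CD4 CD5hi (0.34, adjusted p = 0.0233) and than in CD8 CD5lo (0.36, adjusted p = 0.0397). That library had the highest B cell marker sum and the lowest cell cycle sum of its group, and the part of either was not tested. Eed passed only with the block, lower in CD8 than in CD4 cells in CD5lo (-0.24, adjusted p = 0.0196) and in CD5hi (-0.19, adjusted p = 0.0451).

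The 6 methyltransferases of lysine 4 all had a negative estimate in CD8 CD5hi against CD8 CD5lo, with a median of -0.25. None passed with all libraries and no block. In CD4 cells the median was -0.09. In the CD8 comparison 30 of 43 members were negative, with all 6 other histone methyltransferases, against 6829 of 13554 genes. For each lysine 4 enzyme, replicate 1 was lower relative to its group in CD8 CD5hi than in CD8 CD5lo. For Setd1b its ratio to the mean of the other libraries was 0.631 and 0.753. The part of this in the estimates was not tested. The lowest of the 6 estimates in CD8 cells was that of Setd1b at -0.37 ± 0.17 (adjusted p = 0.211). Kmt2b, at -0.26 ± 0.10, passed without CD8 CD5hi replicate 4 (-0.33, adjusted p = 0.0477). Between lineages, Setd1b and Kmt2b passed in CD5hi. Setd1b, a catalytic subunit of a SET1 complex, was at 98.7, 147, 156 and 166 CPM in CD8 CD5hi, against 151, 214, 216 and 205 CPM in CD4 CD5hi. Replicate 1 was the lowest library in both groups, and the groups overlapped. The log2 change was -0.47 ± 0.17 (edgeR adjusted p = 0.0464), lost without any one of 11 libraries (adjusted p up to 0.136). Those libraries were CD8 CD5hi replicates 1 to 3, CD8 CD5lo replicates 2 to 4, CD4 CD5hi replicates 2 to 4 and CD4 CD5lo replicates 1 and 3. The call was also lost with other size factors, with no filter on low counts, with only those groups in the fit and with counts halved.

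Kmt2b, which writes the mark at promoters, was at 267, 352, 348 and 388 CPM in CD8 CD5hi, against 396, 440, 454 and 438 CPM in CD4 CD5hi. The groups did not overlap, and the log2 change was -0.35 ± 0.10 (edgeR adjusted p = 0.0145, lost only without CD4 CD5hi replicate 3, at 0.0526). In CD5lo the changes were -0.23 for Setd1b and -0.17 for Kmt2b and did not pass. Kmt2a, Kmt2c and Kmt2d had group means of 449 to 567, 389 to 439 and 1016 to 1258 CPM, and Setd1a 169.5 to 205 CPM. With the block, Kmt2a was higher in CD8 CD5lo than in CD4 CD5lo (0.23, adjusted p = 0.0443; 0.33 and 0.0466 without CD4 CD5lo replicate 4 and no block) and Setd1a lower in CD8 CD5hi than in CD4 CD5hi (-0.25, adjusted p = 0.0088).

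Calls were also absent among the 6 other histone methyltransferases. With all libraries and no block none was called by edgeR in any of the 5 comparisons. The largest CD5 estimate was that of Dot1l, the lysine 79 enzyme, at -0.13 in CD8 cells. Setd2, which methylates lysine 36, had group means of 199 to 211 CPM and Nsd1, which acts on the same residue, of 330 to 369 CPM. Setdb1, Ehmt1 and Ehmt2 methylate lysine 9 and had means of 102 to 110.0, 95.3 to 105 and 219 to 250 CPM. Dot1l had means of 155 to 174 CPM. Setdb1 also varied least between replicates of all members, with a mean coefficient of variation of 3.37%. With the block, Nsd1 was higher in CD8 CD5lo than in CD4 CD5lo (0.16, adjusted p = 0.0239), and Ehmt1 (-0.14, adjusted p = 0.0217) and Ehmt2 (-0.19, adjusted p = 0.0395) were lower in CD8 CD5hi than in CD4 CD5hi. DESeq2 also called Ehmt1 there (adjusted p = 0.0490), and edgeR called Ehmt2 without CD4 CD5lo replicate 2 (adjusted p = 0.0326).

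With all libraries and no block, no histone demethylase passed in a CD5 comparison. Of the class, 2 were lower in CD8 CD5hi than in CD4 CD5hi. Kdm5b, which removes lysine 4 methylation, was at 56.4, 82.3, 88.9 and 73.5 CPM in CD8 CD5hi, against 84.7, 110, 124 and 93.1 CPM in CD4 CD5hi. The groups overlapped, and the log2 change was -0.45 ± 0.16 (edgeR adjusted p = 0.0484), lost without any one of 12 libraries. These were all but CD8 CD5hi replicate 3, CD8 CD5lo replicates 1 and 3 and CD4 CD5hi replicate 1, with an adjusted p up to 0.174. Without the 3 libraries high in B cell markers the log2 change was -0.42 (adjusted p = 0.0805). The call of Kdm5b was also lost with other size factors, no filter on low counts, only those groups in the fit and counts halved. Kdm4a, which acts on lysines 9 and 36, was at 112, 137, 130 and 140 CPM in CD8 CD5hi, against 144, 160, 154 and 156 CPM in CD4 CD5hi, with no overlap. Its log2 change was -0.24 ± 0.07 (adjusted p = 0.0135, lost without CD4 CD5hi replicate 2, at 0.0545). With the block both were lower in CD8 CD5lo than in CD4 CD5lo too, Kdm5b with a log2 change of -0.27 (adjusted p = 0.0028) and Kdm4a with -0.15 (adjusted p = 0.0462).

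Kdm2b, a lysine 36 demethylase that recruits a variant Polycomb complex, averaged 54.6 CPM in CD8 CD5hi and 47.9 in CD8 CD5lo, and 56.6 CPM in CD4 CD5hi and 47.8 in CD4 CD5lo. In CD4 cells its change was 0.25 ± 0.11 (adjusted p = 0.386), and with the replicate block it passed (0.25 ± 0.06, adjusted p = 0.0183). Of its exonic bases 10.7% are shared with Rnf34 on the other strand, and whether counting used strand is not given, so its reads cannot be fully told apart. Kdm6b had the widest replicate spread, with a mean coefficient of variation of 28.7%, and group means of 231 CPM in CD8 CD5hi, 299 in CD8 CD5lo, 327 in CD4 CD5hi and 375 in CD4 CD5lo. With the block it was lower in CD8 than in CD4 cells at both CD5 levels, with a log2 change of -0.52 in CD5hi (adjusted p = 0.00113) and -0.36 in CD5lo (adjusted p = 0.0196). Kdm1a (LSD1), Kdm2a and Kdm5a had group means of 116 to 127, 231 to 246 and 178 to 190.1 CPM and were not called, with or without the block, in the CD4 and lineage comparisons.

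SWI/SNF subunits were called in no comparison by edgeR with all libraries and no replicate block. Smarca4, the BRG1 ATPase, had group means of 238 to 251 CPM, Arid1a, the subunit that marks one form of the complex, 721 to 862 CPM, and Smarcc1, a scaffold subunit, 63.7 to 75.7 CPM. Smarcc1 averaged 75.7 CPM in CD8 CD5hi and 64.4 in CD8 CD5lo, a log2 change of 0.23 ± 0.11 (adjusted p = 0.218). It passed with the block (0.23 ± 0.05, adjusted p = 0.00332), although replicate numbers did not pair these libraries by the check used. Arid1a was lower in CD8 CD5hi than in CD4 CD5hi only with the block (-0.25, adjusted p = 0.0297).

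Between the lineages smaller shares of the members than of all genes passed in the fit without the replicate block. In CD5hi, 10 of 43 passed in CD8 against CD4 cells (23.3%), 2 higher and 8 lower, against 30.3% of all genes, 15.6% higher and 14.8% lower. In CD5lo, 3 of 43 passed (6.98%), with Hdac7 and Hdac4 higher and Hdac5 lower, against 19.5% of all genes, 10% higher and 9.44% lower. Whether the lineage difference itself depends on CD5 is the same test as the difference between the CD5 effects, in which no member passed. Members missing the threshold had an interval within 1.5-fold for 28 of 33 in CD5hi and 35 of 40 in CD5lo. Libraries with the same number deviated together in the CD4 and both lineage comparisons. With the number as a block the counts were 20 of 43 members in CD5hi (46.7% of all genes), 11 in CD5lo (32.1%) and 3 in the CD4 CD5 comparison (9.68%). In CD5hi the share of the members was then near that of all genes. The members called without the block were all called with it in these 3 comparisons.

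**Figure D4:**
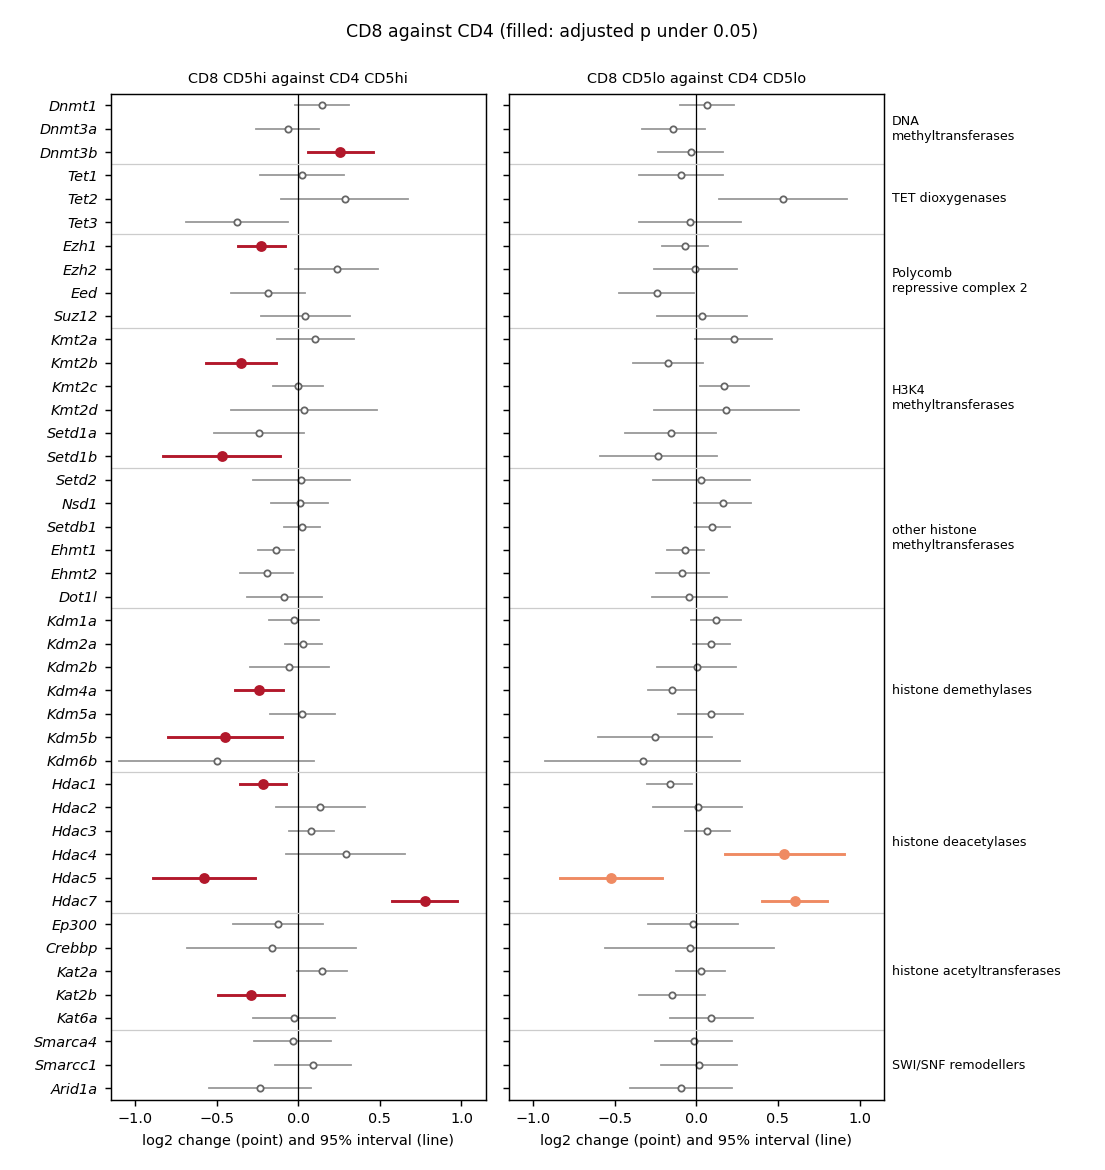
Log2 change of each member in CD8 against CD4 cells (horizontal axis; point, estimate; line, 95% interval; filled, adjusted p under 0.05), with CD5hi on the left and CD5lo on the right. Hdac7 is highest and Hdac5 lowest in CD5hi, where 2 filled points lie above 0 and 8 below; in CD5lo 3 points are filled.

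The replicate 1 libraries were low in many members in all 4 groups. For Kdm6b, replicate 1 had 124 CPM in CD8 CD5hi, where the other libraries had 245 to 289, and 180 CPM in CD8 CD5lo, where the others had 304 to 372. In CD4 CD5hi it had 206 CPM, where the others had 311 to 418, and in CD4 CD5lo 282 CPM, where the others had 319 to 512. The ratio of replicate 1 to the mean of the others, averaged over the groups, was 0.563 for Kdm6b, 0.617 for Crebbp, 0.704 for Tet2 and 0.733 for both Hdac4 and Kmt2d, and 1.22 for Hdac2 at the other end. Replicate 1 was the lowest library in all 4 groups for 11 of 43 members (25.6%), against 8.31% of 13531 genes. In CD4 CD5lo, replicate 2 and not replicate 1 was the lowest library for several other members. It was at 768 CPM for Kmt2d, 409 for Hdac7 and 738 for Arid1a, where replicate 1 had 1032, 483 and 784 CPM. Leaving out replicate 1 does not remove that library.

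Most low ratios were those of members with long mRNA, although Kdm6b, the lowest, has 6654 exonic bases. Among the 19 members with over 8000 exonic bases the median ratio was 0.784, and among the 13 with at most 5000 it was 1.04. Over all genes with those lengths the medians were 0.918 and 1.03. Spearman's rho between ratio and exonic length was -0.67 over the 43 members and -0.26 over 13003 genes; these are descriptions across genes that share the same libraries. Members were longer than other genes, with a median of 6612 exonic bases against 3105. The summed CPM of the members ran from 7037 in CD8 CD5hi replicate 1 to 10197. Every group has its own replicate 1, but the ratio differed between groups. For Kmt2d it was 0.537 in CD8 CD5hi and 0.797 in CD8 CD5lo, and for Hdac7 0.758 in CD8 CD5hi and 0.982 in CD8 CD5lo. The part of this in the comparisons was not tested beyond the values given without these libraries. The sources used here give no RNA quality or library kit for single samples.

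**Figure D5:**
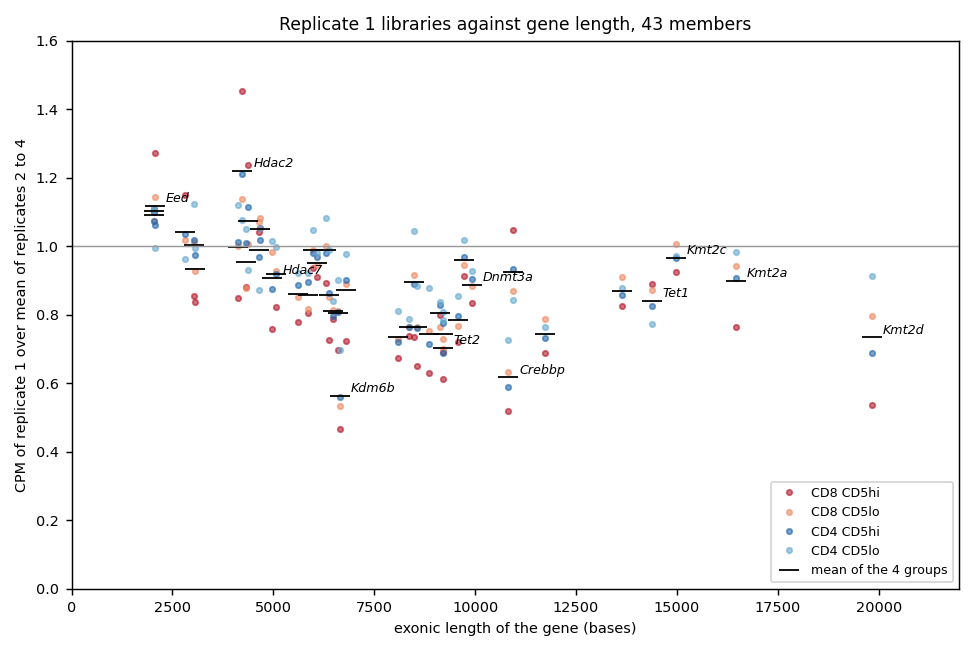
CPM of replicate 1 divided by the mean of replicates 2 to 4 in the same group (vertical axis) against exonic length in bases (horizontal axis), for the 43 members; dots are the 4 groups and black bars their mean. Short members such as Hdac2 and Eed lie above 1, and the means of all 19 members over 8000 bases lie below it; Kdm6b, of middle length, is lowest at 0.563.

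Other genes of the same systems were taken from 8 lists of partners and further enzymes, 130 genes of which 128 were tested. In CD8 CD5hi against CD8 CD5lo 7 were higher and 5 lower, and in CD4 CD5hi against CD4 CD5lo 0 were higher and 1 lower. These are 9.38% and 0.781% of the 128, against 9.46% and 4.08% of all genes. The list of DNA methylation partners held the widest change, and of its 7 tested genes 1 was higher and 1 lower in CD8 CD5hi. Uhrf1, which brings Dnmt1 to newly copied DNA, averaged 59.2 ± 19.1 CPM in CD8 CD5hi, against 24.2 ± 2.31 CPM in CD8 CD5lo (log2 change 1.29 ± 0.20, edgeR adjusted p = 0.000794). Of 27 other Polycomb genes, 2 were higher and 3 lower, Cbx7 (-0.51), Phc3 (-0.32) and Phf1 (-0.55), which are subunits of Polycomb complexes.

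Of 17 further histone methyltransferases, 4 were higher in CD8 CD5hi and 1 lower. Smyd2 rose by 0.63 ± 0.08, at 27.3 ± 2.35 CPM in CD8 CD5hi and 17.6 ± 0.965 in CD8 CD5lo (adjusted p = 0.000161). It was the only 1 of the 128 to pass the difference between the CD8 and CD4 effects (0.60 ± 0.11, adjusted p = 0.0391). Nsd2 was higher by 0.59 and Prmt5 by 0.26. Setd7, a lysine 4 methyltransferase, was lower in CD5hi in both lineages, at 122 ± 15.6 CPM in CD8 CD5hi and 151 ± 5.61 in CD8 CD5lo (-0.31, adjusted p = 0.0256), and at 117 ± 5.88 CPM in CD4 CD5hi and 145 ± 9.95 in CD4 CD5lo (-0.31, adjusted p = 0.0389). The lists of lysine 4 partners, further demethylases, deacetylases and corepressors, acetyltransferases and remodelling genes had 0 called in either CD5 comparison by edgeR. Between lineages, 13 of the 128 were higher and 24 lower in CD8 CD5hi than in CD4 CD5hi, and 7 were higher and 11 lower in CD8 CD5lo than in CD4 CD5lo. These are 28.9% and 14.1%, against 30.3% and 19.5% of all genes.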

How the data were processed

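RNA sequencing measured gene expression in 16 libraries of sorted naive T cells, 4 in each of 4 groups taken from the labels. The deposited values are raw counts per gene, 1 table of 24421 genes, which the authors made with STAR 2.5.2a and featureCounts 1.4.6-p3 on mm10, tools named with DESeq2 per the submitters' processing notes. Libraries were made with a TruSeq RNA version 2 or stranded kit, per the labels' protocols; which sample had which kit, and the strand setting of the counting, were not given in these sources. The series counts technical replicates, but each sample has 1 column, and 0 columns were left unmatched. Totals ran from 71447252 to 93418385 counts (median 78528233). Counts of 1 to 9 were even in 73.9 to 80.5% of cases, so halved counts were tried as an alternative.

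From these counts edgeR 4.0.16 in R 4.3.3 (TMM, filterByExpr with minimum count 10 and total 15) fitted 1 term per group over all 16 libraries (12 residual degrees of freedom), with two-sided quasi-likelihood F tests and Benjamini-Hochberg adjustment over 13554 genes within each of 5 comparisons. The SE is the log2 change over the square root of F. Alternatives included DESeq2 1.42.0, limma 3.58.1 (voom), other size factors, no filter, left-out libraries and a replicate block. Replicate numbers come from the sample titles. Same-numbered libraries deviated together, with correlations of 0.251 to 0.534 in the CD4 comparison, 0.203 to 0.704 in CD5lo and 0.235 to 0.538 in CD5hi between lineages. In the CD8 CD5 comparison they ran from -0.04 to 0.562, with 2 of 4 pairs over 0.1. The value of 0.704 was that of the replicate 3 libraries of CD8 CD5lo and CD4 CD5lo, both high in B cell markers. CD8 CD5hi replicate 4 and CD8 CD5lo replicate 3, also both high in these markers, correlated at 0.426 although their numbers differ. The part of these markers in the pairing was not tested.

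The members, the lists of other genes and the alternatives were chosen with earlier results of these data known. All 43 members are named. Values per library are given for called members with the largest log2 change of their class, at most 2 per class and kind of comparison, and of each other list up to 3 called genes per CD5 comparison are named, except one that is not reported here. Of the remaining marker lists, 10 myeloid, 6 natural killer, 5 naive T cell, 2 CD4 and 2 CD8 lineage markers, the CD8 lineage list had 1 lower in CD8 CD5hi and 2 lower in CD4 CD5hi, and natural killer markers 1 higher in CD8 CD5hi and 1 lower in CD4 CD5hi, each against CD5lo. The others, and the B cell markers, had 0, and of 6 T cell markers 1 was lower in CD8 CD5hi and 1 higher and 1 lower in CD4 CD5hi. Exonic lengths and positions come from GENCODE vM21 (GRCm38) and promoters from RefSeq (34 of 43 members matched). The procedure was tested on simulated data drawn without replicate effects, so that test does not cover the shared deviations of same-numbered libraries.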

Additional observations from a re-analysis of the deposited data

Results flagged for a closer look

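Within each group of 4 libraries, a value was picked out where 1 library lay far outside the range of the other 3. Of 172 groups of 4 (43 members in 4 groups), 16 held such a value, spread over 7 libraries, and chance alone picks out about 1 in 20. No member had CD5 effects that ran in opposite directions in every library of the lineages.

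Most were low values of replicate 1 in CD8 cells. In CD8 CD5hi replicate 1, Ehmt2 was at 192.9 CPM, where the other libraries had 224.9 to 229.5 CPM. Ep300 was at 152.6 CPM there (others 210.5 to 213.1), Crebbp at 85.2 CPM (158.7 to 170.9) and Kat6a at 211.7 CPM (261.3 to 269.7). Smarca4 was at 185.9 CPM (254.8 to 256.3) and Arid1a at 512.7 CPM (775.1 to 810.4). In CD8 CD5lo replicate 1, Ep300 was at 180.9 CPM (232.3 to 239.7), Kat6a at 225.7 CPM (292.8 to 298.4) and Arid1a at 655.7 CPM (857.1 to 862.3). In CD4 CD5hi replicate 1, Setd1b was at 151.2 CPM (205.2 to 215.8) and Smarcc1 at 59.6 CPM (73.1 to 75.8). None of these members was called in a CD5 comparison; Setd1b was called between the lineages in CD5hi.

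The other values came from CD4 libraries. In CD4 CD5hi replicate 2, Kat2a was low at 126.1 CPM (133.3 to 133.9) and Kat2b high at 73.9 CPM (64.3 to 65.9). In CD4 CD5hi replicate 4, Dnmt1 was high at 213.6 CPM (202.6 to 204.3). Suz12 was high in CD4 CD5lo replicate 2 at 138.9 CPM (105.4 to 108.9), and Kmt2c in CD4 CD5lo replicate 4 at 421.4 CPM (373.9 to 381.2).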

How the results depend on the processing

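No called log2 change of a member reversed under any alternative; some members not called, with estimates near 0, changed sign. The calls of Hdac7 in CD4 CD5hi against CD4 CD5lo and in both lineage comparisons, of Dnmt3a in CD8 cells and of Hdac5 between lineages in CD5hi were kept under all of them. For CD4 CD5hi against CD4 CD5lo, 2 members were called as reported, 1 with DESeq2's size factors in edgeR, 1 with no filter on low counts and 1 without the 4 replicate 1 libraries, in each case Hdac7. For CD8 CD5hi against CD8 CD5lo, 3 members were called as reported, 5 by DESeq2 (13.2% of all genes) and 1 without the replicate 1 libraries (Dnmt3a; 5.33%). Between CD8 CD5lo and CD4 CD5lo the count was 3 as reported and 5 by DESeq2 (22.4% of all genes). Between CD8 CD5hi and CD4 CD5hi it was 10 as reported and 4 with only those groups in the fit, which have fewer samples. Those 4 were Kmt2b, Hdac5, Hdac7 and Kat2b. No member passed the difference between the CD5 effects under any alternative (0 to 0 over left-out libraries); a fit of only the groups compared gives no value for it.

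With single libraries left out in turn, counts ran from 1 to 3 for CD4 CD5hi against CD4 CD5lo, with 3 without CD4 CD5lo replicate 3. They ran from 1 to 6 for CD8 CD5hi against CD8 CD5lo, with 6 without CD8 CD5hi replicate 4 and 1 without CD8 CD5lo replicate 1 or 2. They ran from 1 to 4 between lineages in CD5lo, with 1 without CD8 CD5lo replicate 4, and from 4 to 10 in CD5hi, with 4 without CD8 CD5hi replicate 2.

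With the replicate number as a block, counts were 11 between lineages in CD5lo (32.1% of all genes passed) and 20 in CD5hi (46.7%). Without the 3 libraries high in B cell markers the blocked counts were 5 in CD5lo (25.2%), 17 in CD5hi (43.2%) and 4 in CD4 CD5hi against CD4 CD5lo (8.59%). In CD8 CD5hi against CD8 CD5lo the numbers did not pair the libraries by the check used. The block gave 13 members there, where 25.0% of all genes passed against 9.46% without it, and 9 members without the 3 libraries (21.6%). Of the 13, Dnmt3a, Dnmt3b, Ezh2, Kdm2b and Smarcc1 were higher in CD5hi. Tet3, Ezh1, Kmt2b, Setd1b, Kdm6b, Hdac4, Hdac7 and Kat2b were lower. The block gave 0 for the difference between the effects. Leaving out all replicate 1 libraries, and the block without the 3 libraries, were chosen after seeing the data. Halving the counts changed 0 of the CD5 calls, and 8 members were then called between lineages in CD5hi. The cause of these changes was not tested. The p-values measure the spread between 4 libraries a group, which may be technical.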
